A study of Rattus norvegicus with 16 samples.

Results

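The genes described here are Cd74 and the major histocompatibility complex (MHC) class II genes of the rat liver, with Ciita, their transcriptional coactivator. The 8 members were found by symbol among the 17055 gene symbols of every library: Cd74, Ciita, RT1-Da, RT1-Db1, RT1-Ba, RT1-Bb, RT1-DMa and RT1-DMb. All 8 were listed, 6 had reads, and RT1-DMa and RT1-DMb were listed at 0 reads in each of the 16 libraries. The RNA came from livers of male Sprague-Dawley rats, an outbred stock, aged 10 weeks. In the Isoflurane + Sepsis group the cecum had been ligated and punctured under isoflurane, which also served for induction, and in the isoflurane control group the cecum was lifted out and put back with neither ligation nor puncture. In the Propofol + Sepsis and propofol control groups the same operations were done under propofol after induction with ketamine and xylazine. Livers were taken after 8 h, and each library was a pool of 3 rats, so that 12 rats gave 4 libraries per group and 48 rats the 16 libraries. The isoflurane controls were libraries 5 to 8 and the Isoflurane + Sepsis pools libraries 1 to 4, and the propofol controls were libraries 13 to 16 and the Propofol + Sepsis pools libraries 9 to 12. The p-values therefore measure the spread between pools, and in any comparison of the anesthetics the maintenance drug, the induction drugs and any batch of libraries cannot be told apart.

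MHC class II molecules are pairs of an alpha and a beta chain that carry peptides from endosomes to the surface of antigen-presenting cells, where CD4+ T cells read them. RT1-Da and RT1-Db1 are the alpha and beta chains of RT1-D, and RT1-Ba and RT1-Bb those of RT1-B. Cd74, the invariant chain, holds the new pair together and blocks its groove until lysosomal proteases remove it, and RT1-DMa and RT1-DMb form the chaperone that exchanges its last fragment for peptide. In the liver these molecules are known from Kupffer cells, dendritic cells, B cells and sinusoidal endothelium. Ciita binds no DNA itself and acts through factors that sit on the X and Y boxes of class II promoters.

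Because class II genes are known for these boxes, the upstream sequences of the members were searched for their core letters. RefSeq promoter windows of 250 bases before to 50 bases after the gene start were at hand for 6 of the 8 members (build GRCr8), and not for Ciita and RT1-DMb. The letters searched on both strands were ACNGATG for the X box core, TGATTGG for the Y box core and CCAAT, which overlaps the Y box core in its reverse complement. A Y box core match was found in 5 members and an X box core match in 4, against 7.06% and 10.2% of all 33469 windows, while CCAAT was found in 37.5% of windows. An X box core at most 30 bases before a Y box core on the gene's strand was found in 9 windows of the whole table, and 6 of these belonged to class II genes (RT1-Da, RT1-Db1, RT1-Bb, RT1-DMa, RT1-Db2 and RT1-DOb). The other 3 windows were those of Hsd17b7, Tdo2 and G3bp2. The letters are those of boxes known from class II promoters, so the count of class II genes among the 9 windows is a description and no test. Between the boxes lay 21 bases in RT1-Da, 20 in RT1-Db1, 20 in RT1-Bb and 21 in RT1-DMa. The stretches below are shown to let this spacing be read, with matched letters in capitals, all upstream of the gene start and 5′ to 3′ on the gene's strand. RT1-Da lies at chr20:4515319-4515380 (plus strand), RT1-Db1 at chr20:4560228-4560289 (minus), RT1-Ba at chr20:4576967-4577028 (plus), RT1-Bb at chr20:4604165-4604226 (minus), RT1-DMa at chr20:4712385-4712446 (minus) and Cd74 at chr18:56526972-56527031 (plus).
RT1-Da: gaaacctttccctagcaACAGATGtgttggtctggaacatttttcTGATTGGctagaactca
RT1-Db1: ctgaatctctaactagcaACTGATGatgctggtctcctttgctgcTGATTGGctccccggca
RT1-Bb: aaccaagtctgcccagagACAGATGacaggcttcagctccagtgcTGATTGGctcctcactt
RT1-DMa: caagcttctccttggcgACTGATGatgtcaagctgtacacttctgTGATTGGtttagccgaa
RT1-Ba: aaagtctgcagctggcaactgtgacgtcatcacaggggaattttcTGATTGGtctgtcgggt
Cd74: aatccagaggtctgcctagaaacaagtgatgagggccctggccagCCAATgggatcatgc
RT1-Ba held the Y box core, with the CCAAT that overlaps it in reverse complement, and no X box core match, and Cd74, whose capitals mark CCAAT, held neither core. A match describes letters and shows no binding, and the absence of a match says only that these letters were not in this window. The counts were made on build rn5, and no coordinate was converted between the builds.

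Between 14199422 and 49937173 reads per library fell on genes. Levels are given as CPM (read counts scaled to a common library total) after TMM scaling, a correction for composition whose factors were 0.920 to 0.979 in the isoflurane libraries and 1.02 to 1.09 in the propofol libraries. Read counts grow with transcript length, so levels were compared between groups and not between members. Hepatocyte transcripts were abundant in every group, with group means of 59102 to 89750 CPM for Alb (albumin). The data are from whole liver, in which more cells of a type and more RNA per cell cannot be told apart. A gene was called when its adjusted p in the quasi-likelihood test of edgeR, corrected over all genes tested, was below 0.05.

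Cd74 was the member with the most reads, 1439 to 3375 in a library. In the Isoflurane + Sepsis libraries it stood at 115, 124, 127 and 133 CPM, and in the isoflurane control libraries at 76.0, 71.2, 88.8 and 68.9 CPM. The Propofol + Sepsis libraries had 101, 100.5, 107 and 103 CPM and the propofol control libraries 117, 99.8, 121 and 104 CPM. Every isoflurane control library was thus below every library of the other 3 groups, whereas the propofol groups overlapped. The means were 125 ± 7.49 (SD, n = 4) in Isoflurane + Sepsis, 110.5 ± 10.1 in propofol control, 103 ± 3.07 in Propofol + Sepsis and 76.2 ± 8.90 CPM in isoflurane control. In that order, Isoflurane + Sepsis and propofol control overlapped, as did propofol control and Propofol + Sepsis, and the step from Propofol + Sepsis down to isoflurane control was free of overlap.

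RT1-Da, the alpha chain of RT1-D, had the same order of groups. Its levels were 52.7, 48.9, 51.7 and 61.8 CPM in Isoflurane + Sepsis, and 33.9, 30.7, 42.0 and 31.9 CPM in isoflurane control. In Propofol + Sepsis they were 38.6, 43.7, 45.2 and 40.9 CPM, and in propofol control 43.4, 43.3, 47.3 and 41.8 CPM. The Isoflurane + Sepsis libraries lay above all 12 others, and of the isoflurane control libraries only library 7 reached the range of the propofol groups. RT1-Db1, the beta chain of the same molecule, was at 36.3, 33.6, 33.4 and 27.97 CPM in Isoflurane + Sepsis and at 25.5, 22.7, 27.1 and 21.4 CPM in isoflurane control. It was at 31.1, 34.2, 33.4 and 30.9 CPM in Propofol + Sepsis and at 31.1, 36.0, 37.9 and 29.6 CPM in propofol control. For this chain the isoflurane control libraries were again the low group, and the other 3 groups overlapped one another.

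RT1-Ba, the alpha chain of RT1-B, was at 34.9, 32.5, 37.7 and 42.3 CPM in Isoflurane + Sepsis and at 22.9, 22.2, 24.4 and 20.4 CPM in isoflurane control. It was at 28.1, 29.1, 30.7 and 31.5 CPM in Propofol + Sepsis and at 29.8, 28.1, 34.7 and 27.2 CPM in propofol control. The isoflurane control libraries were below all others, and the propofol groups overlapped with means of 29.8 ± 1.53 and 29.9 ± 3.35 CPM.

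**Figure D1:**
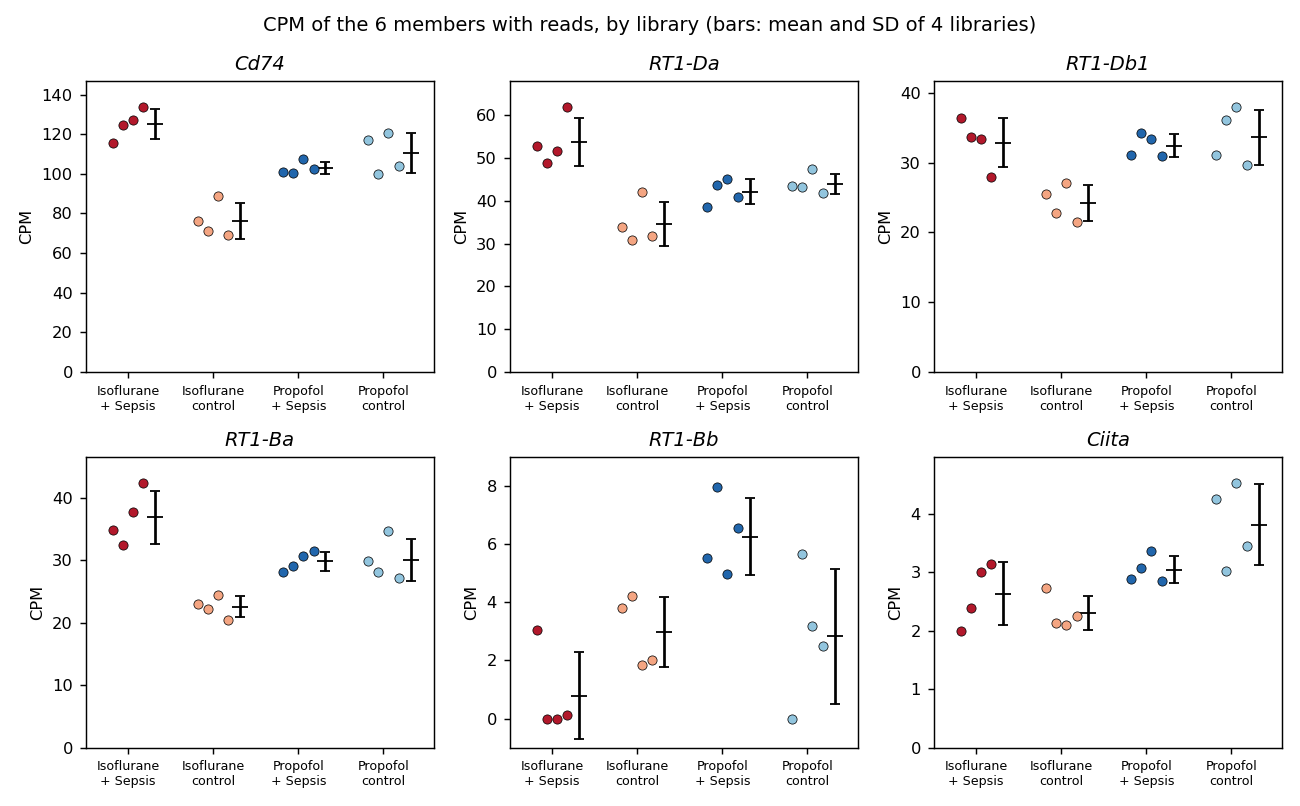
CPM (TMM-scaled) of the 6 members with reads in each of the 16 libraries, with 1 point per library and the mean and SD of 4 libraries beside each group. The isoflurane control libraries were lowest for Cd74 (68.9 to 88.8 CPM), RT1-Db1 and RT1-Ba, and RT1-Bb was at 0 in libraries of both anesthetics.

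Under isoflurane, sepsis was compared with control in a fit of 8 libraries. Of the 6 members tested, 4 rose, namely Cd74, RT1-Ba, RT1-Da and RT1-Db1, and Ciita and RT1-Bb were not called; among all 10361 genes tested 25.7% were called higher and 24.4% lower. Cd74 rose by 0.72 on the log2 scale (SE 0.0965, adjusted p = 0.000512), a 1.65-fold difference. RT1-Ba rose by 0.72 (SE 0.101, adjusted p = 0.000642) and RT1-Da by 0.64 (SE 0.116, adjusted p = 0.00222). RT1-Db1 rose by 0.44 (SE 0.107, adjusted p = 0.00846). For each of these 4 the sepsis libraries were all above the control libraries. How many of all genes separate in this way was not counted. The median log2 fold change of the 6 tested members was 0.54, against 0.01 over all genes tested.

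Under propofol the same comparison called 0 of the 6 members with edgeR, 0 with DESeq2, and 0 had an unadjusted p below 0.05, where 20.4% of 10348 genes were called higher and 21.7% lower. The fitted differences were -0.11 for Cd74 (95% interval -0.27 to 0.05), -0.07 for RT1-Da (-0.22 to 0.08), -0.06 for RT1-Db1 (-0.26 to 0.13) and -0.01 for RT1-Ba (-0.20 to 0.17). The upper ends of these intervals were below the rises fitted for the same genes under isoflurane. Their sepsis and control libraries overlapped for every member tested, and the median over the 6 members was -0.07, against 0.00 over all genes.

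Whether the response differed between the anesthetics was tested directly, with all 16 libraries in 1 model and an interaction term. It was positive, that is the change with sepsis was larger under isoflurane, and called for Cd74 (0.82, SE 0.119, adjusted p = 0.00740), RT1-Ba (0.72, SE 0.131, adjusted p = 0.0183) and RT1-Da (0.70, SE 0.137, adjusted p = 0.0220). These 3 of 6 members stood beside 1.66% of 10621 genes called with a positive and 1.06% with a negative interaction. RT1-Db1 had an interaction of 0.50 (adjusted p = 0.0652) and Ciita one of 0.52 (adjusted p = 0.206), neither of them called. That of RT1-Bb was negative, at -2.93 (adjusted p = 0.174), and also not called. The call of RT1-Da was lost without library 6, 8 or 12, at adjusted p of 0.0528, 0.0523 and 0.0514. Without library 1, RT1-Db1 was called as well, and RT1-Bb was called in the opposite direction (-7.17), which made 5 members. RT1-Db1 was also called without library 4.

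The control groups, rats without sepsis that were sampled after the same 8 h, differed between the anesthetics. Isoflurane control was below propofol control for 5 of the 6 tested members, while 21.7% of 10314 genes were called lower and 21.6% higher. Ciita had the largest of these differences, at -0.73 (SE 0.153, adjusted p = 0.00317). Cd74 differed by -0.54 (SE 0.0895, adjusted p = 0.000855), RT1-Db1 by -0.48 (SE 0.0968, adjusted p = 0.00253) and RT1-Ba by -0.42 (SE 0.0851, adjusted p = 0.00274). RT1-Da differed by -0.35 (SE 0.0928, adjusted p = 0.0119), with 1 isoflurane control library above the lowest propofol control library. The sepsis effect under isoflurane, the interaction and this control difference share libraries 5 to 8, so a low level in those libraries enters all of them. With library totals alone in place of TMM the median of all genes moved to -0.15, calls that were higher fell from 49.8% to 22.9% of all calls, and the same 5 members were called lower, at -0.49 (RT1-Da) to -0.88 (Ciita).

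After sepsis, isoflurane minus propofol was positive and called for 2 of 6 members, beside 10.6% of 10272 genes called higher and 8.66% lower. RT1-Da was higher by 0.35 (SE 0.0942, adjusted p = 0.0345) and Cd74 by 0.28 (SE 0.0737, adjusted p = 0.0323), and neither overlapped between the groups. RT1-Ba had a difference of 0.30 (adjusted p = 0.0551) and did not overlap either, though it was not called. RT1-Db1 had a difference of 0.02 and Ciita one of -0.21 (adjusted p = 0.425). These calls were not stable. With library totals alone, which moved the median of all genes to -0.16 and the share of higher calls from 55.1% to 21.5%, Cd74 had 0.14 (adjusted p = 0.192) and RT1-Da 0.20 (adjusted p = 0.123). With 1 library left out, 0 members were called without library 3, 4, 9, 11 or 12, and RT1-Da alone without library 10. Without library 1 there were 4 members called, among them RT1-Bb in the opposite direction.

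**Figure D2:**
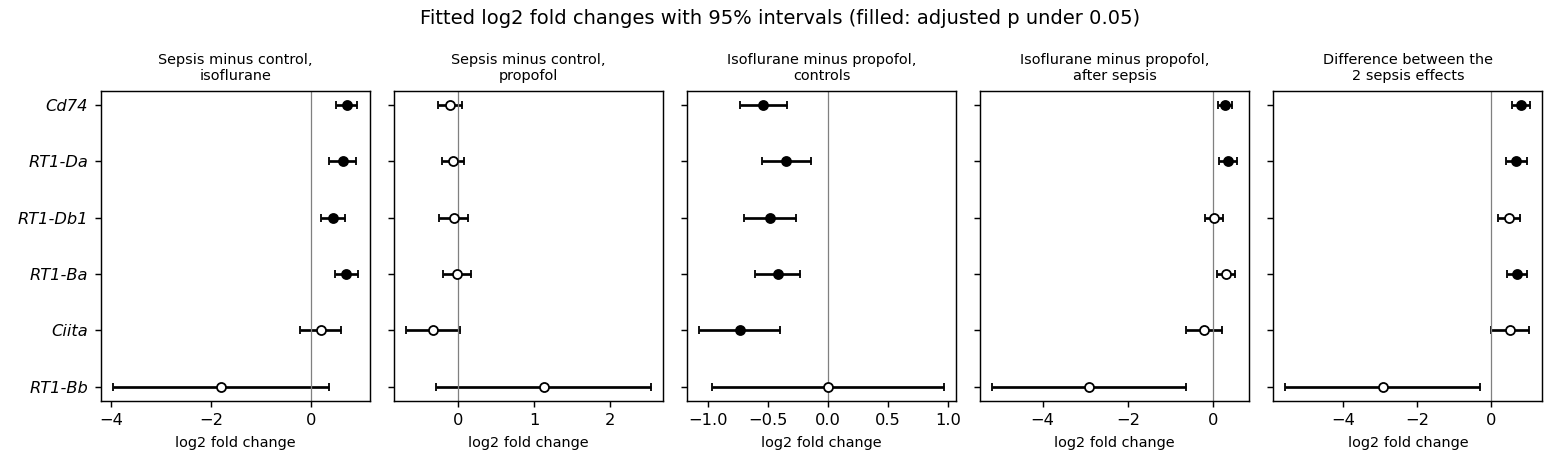
Fitted log2 fold changes (points) with 95% intervals (bars) of the 6 tested members in 5 comparisons, on separate axes, filled where the adjusted p was below 0.05. Cd74, RT1-Da, RT1-Db1 and RT1-Ba were above 0 under isoflurane and had intervals that include 0 under propofol, and RT1-Bb had the widest intervals.

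RT1-Bb, the beta chain of RT1-B, did not follow its partner. Its reads were 61, 0, 0 and 2 in libraries 1 to 4, 81, 85, 40 and 97 in libraries 5 to 8, 98, 163, 93 and 216 in libraries 9 to 12, and 0, 97, 67 and 52 in libraries 13 to 16. RT1-Ba had between 449 and 1035 reads in every library, including 504 and 727 in libraries 2 and 3 and 463 in library 13, the 3 libraries where RT1-Bb was at 0. A count of 0 allows 3 reads, that is up to 0.182, 0.144 and 0.211 CPM of the library totals there, and these limits cover counting error only. In CPM the group means were 0.791 ± 1.50 in Isoflurane + Sepsis, 2.97 ± 1.21 in isoflurane control, 6.26 ± 1.32 in Propofol + Sepsis and 2.83 ± 2.32 in propofol control. The 4 Propofol + Sepsis libraries lay above all Isoflurane + Sepsis libraries, and the other pairs of groups that the design compares overlapped. RT1-Bb reads per RT1-Ba read were 0 to 0.0873 in Isoflurane + Sepsis, 0.0760 to 0.189 in isoflurane control, 0.162 to 0.273 in Propofol + Sepsis and 0 to 0.201 in propofol control.

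For RT1-Bb the fitted difference was -1.80 under isoflurane (SE 0.957, adjusted p = 0.146), 1.13 under propofol (SE 0.634, adjusted p = 0.177) and -2.91 between the anesthetics after sepsis (adjusted p = 0.0683). Without library 1, the Isoflurane + Sepsis library with 61 reads, the difference was -6.04 under isoflurane (adjusted p = 0.000432) and -7.12 after sepsis (adjusted p = 0.00198), and the interaction was -7.17 (adjusted p = 0.00693). These values rest on 2 reads in 3 libraries and depend on the prior count. With library 1 kept, limma-voom also called RT1-Bb under isoflurane (-4.24, adjusted p = 0.0119) and after sepsis (-5.48, adjusted p = 0.0150). After sepsis edgeR's quasi-likelihood test called it too with all 16 libraries in 1 fit (-2.89, adjusted p = 0.0223), with reads thinned to the shallowest library (-3.10, adjusted p = 0.0464) and with library totals alone (-3.06, adjusted p = 0.04996). Pnmal2, a paraneoplastic antigen family gene, was the other gene with 0 reads in libraries 2, 3 and 13 and reads in all 12 libraries where RT1-Bb had more than 2, with 1 to 8 reads in 11 of these and 167 in library 10. What sets apart the pools without RT1-Bb reads was not tested.

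**Figure D3:**
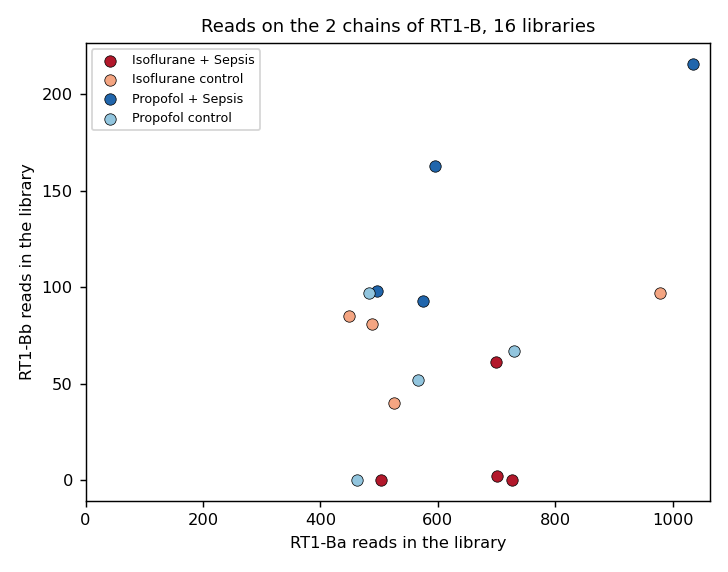
Reads on RT1-Bb (vertical axis) against reads on RT1-Ba (horizontal axis), the chains of RT1-B, with 1 point for each of the 16 libraries and colours for the 4 groups. Libraries 2, 3, 4 and 13 had 0, 0, 2 and 0 reads on RT1-Bb at 504, 727, 700 and 463 reads on RT1-Ba.

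Ciita, the coactivator that class II genes need, had few reads, 37 to 108 in a library. Its levels were 2.00, 2.38, 3.00 and 3.14 CPM in Isoflurane + Sepsis and 2.73, 2.13, 2.09 and 2.25 CPM in isoflurane control. They were 2.88, 3.08, 3.37 and 2.86 CPM in Propofol + Sepsis and 4.25, 3.03, 4.52 and 3.46 CPM in propofol control. The control groups were separate, and sepsis and control overlapped under both anesthetics. The sepsis effect was 0.20 under isoflurane (SE 0.184, adjusted p = 0.395) and -0.33 under propofol (SE 0.160, adjusted p = 0.120). Its 95% interval under isoflurane was -0.22 to 0.61, which overlaps the 0.50 to 0.94 of Cd74. Whether Ciita and Cd74 differ in their change with sepsis was not tested. There were 48.7 ± 7.63 Cd74 reads per Ciita read in Isoflurane + Sepsis, 33.6 ± 6.34 in isoflurane control, 33.9 ± 1.93 in Propofol + Sepsis and 29.4 ± 2.81 in propofol control. RT1-DMa and RT1-DMb, the peptide exchange chaperone, were at 0 throughout, and since the annotation used for counting is not given in the sources used here, it is not known whether reads could be counted on them, and no upper limit on their level is drawn. Tap2, RT1-CE1, RT1-CE12, RT1-T24-4 and the further class II gene RT1-Ha, picked out after their values were seen, were also listed at 0 in every library, while Tap1, the partner of Tap2 in the peptide transporter, had group means of 17.0 to 25.4 CPM.

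Within a library, ratios of members do not depend on the scaling between libraries. Cd74 had 1.02 ± 0.0633 reads per read on RT1-Da, RT1-Db1 and RT1-Ba together in Isoflurane + Sepsis, 0.937 ± 0.0112 in isoflurane control, 0.987 ± 0.0394 in Propofol + Sepsis and 1.03 ± 0.0817 in propofol control. The invariant chain and these 3 chains thus kept a ratio between 0.923 and 1.12 in all 16 libraries, while Cd74 itself ranged from 68.9 to 133 CPM. With RT1-Bb added to the 3 chains this ratio was 0.909 to 1.08 in Isoflurane + Sepsis and 0.882 to 0.931 in isoflurane control. Under propofol it was then 0.873 to 0.979 after sepsis and 0.883 to 1.12 in control. RT1-Da reads per RT1-Ba read were 1.30 to 1.72 over all libraries. RT1-Da reads per RT1-Db1 read were 1.20 to 1.55 in 3 of the groups, and 1.45 to 2.21 in Isoflurane + Sepsis, where library 4 had the 2.21. Over the 16 libraries log2 CPM of Cd74 correlated with RT1-Da at r = 0.93 and with RT1-Ba at r = 0.95, and for deviations from the group means these were 0.76 and 0.75. For RT1-Db1 the values were 0.77 and 0.24, and for Ciita 0.49 and 0.56. These 16 points share their group structure, scaling and pools, and the correlations are descriptions.

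Of 5 further class II genes, RT1-Hb was not among the symbols, RT1-Ha had 0 reads and RT1-DOa was too low to test. RT1-Db2, a second RT1-D beta gene close in sequence to RT1-Db1 so that reads may be split between them, was at 1.95 CPM in Isoflurane + Sepsis, 1.11 in isoflurane control, 1.29 in Propofol + Sepsis and 1.68 in propofol control. It rose with sepsis under isoflurane by 0.81 (adjusted p = 0.00980) and was lower in isoflurane than in propofol controls, by -0.59 (adjusted p = 0.0308). Under propofol its sepsis effect was -0.38 (adjusted p = 0.269). RT1-DOb, the beta chain of the inhibitor of the peptide exchanger, had 0.76 under isoflurane (adjusted p = 0.167) and 0.15 under propofol (adjusted p = 0.753).

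The genes around the members in the pathway were taken as lists, each read beside the shares of all genes given above. Of 7 genes for the factors on the X and Y boxes, 2 were lower with sepsis under isoflurane, Rfxank (-0.48, adjusted p = 0.0107) and Nfyb (-0.39, adjusted p = 0.0172), and 5 were not called. Under propofol Nfyb was lower (-0.67, adjusted p = 0.000241) and Rfxap higher (0.26, adjusted p = 0.0268). Rfx5, which contacts the X box, was lower in isoflurane than in propofol controls (-0.39, adjusted p = 0.0122), and its sepsis effects were 0.24 and -0.02. The list median was 0.02 under isoflurane and -0.09 under propofol.

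Interferon gamma is the classical inducer of Ciita. Ifng itself had 1 read, in 1 isoflurane control library, and 10 of the 11 genes of this axis were tested. Under isoflurane 8 rose and 1 fell, with a median of 0.46. Ifngr2, a chain of the receptor, rose by 0.67 (adjusted p = 0.00120) and its kinase Jak2 by 1.50 (adjusted p = 1.75e-05). The inhibitors Socs3 and Socs1 rose as well, by 1.17 (adjusted p = 0.00103) and 1.33 (adjusted p = 0.00493). Under propofol 3 rose (Jak2 1.76, Socs3 0.76 and Socs1 1.51) and 3 fell, among them Jak1 (-0.23) and Irf2 (-0.20), and the median was -0.00. The interaction was called for Jak1 (0.46, adjusted p = 0.0220) and for Irf2 (0.61, adjusted p = 0.0319), a factor that binds a Ciita promoter.

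Of 7 regulators of Ciita, 6 were tested, and all 6 rose with sepsis under isoflurane (median 1.19), among them activators and repressors. Spi1, the myeloid factor PU.1, rose by 1.54 (adjusted p = 0.000247), and its interaction was 1.20 (adjusted p = 0.0122). Il10, a cytokine that lowers surface class II, rose by 2.32 (adjusted p = 0.000962), Tgfb1 by 0.64 (adjusted p = 0.00465) and Il10rb by 0.50 (adjusted p = 0.00198). Under propofol 3 of the 6 rose, with Il10 at 3.86 (adjusted p = 8.03e-06), Tgfb1 at 0.34 (adjusted p = 0.0170) and Spi1 at 0.33 (adjusted p = 0.0433). Il10 had 12 reads in the propofol control group (mean 0.157 CPM), so its fold there rests on few reads. Its means after sepsis were 2.74 CPM with isoflurane and 2.42 CPM with propofol. Prdm1, which encodes the repressor Blimp-1, had 1.33 under isoflurane (adjusted p = 0.0109) and 0.08 under propofol (adjusted p = 0.892).

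Of 9 lysosomal genes that process antigen and the invariant chain, 5 rose under isoflurane and 3 under propofol. Ctss, the protease that makes the last cuts in Cd74 in many antigen-presenting cells, rose by 0.36 under isoflurane (adjusted p = 0.0126) and had -0.00 under propofol (adjusted p = 0.967), with an interaction of 0.36 (adjusted p = 0.110). Ctsb, Lgmn and Ctsl1 rose under both anesthetics, by 0.68, 1.06 and 0.86 with isoflurane and by 0.61, 0.65 and 0.46 with propofol. Ctsl1 was also higher in isoflurane than in propofol controls (1.02, adjusted p = 2.14e-05), a direction opposite to that of the members. Of the genes for turnover of surface class II, Cd83, which protects class II from the ligase March1, rose under isoflurane by 1.42 (adjusted p = 0.00119) and had 0.35 under propofol (adjusted p = 0.260). The related ligase gene March8 rose by 0.59 (adjusted p = 0.0177) and had 0.05 under propofol (adjusted p = 0.669). March1 was too low to test.

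Class I genes, which present peptides from the cytosol on nearly all cells, were taken for contrast. Of 23 tested, 7 rose and 1 fell under isoflurane and 5 rose and 2 fell under propofol, with medians of 0.27 and 0.15. RT1-A2 rose by 0.76 under isoflurane (adjusted p = 0.00195), RT1-CE10 by 0.62 (adjusted p = 0.00212), and Tap1, a peptide transporter subunit, by 0.53 (adjusted p = 0.00263). The RT1 class I genes are near-identical copies, and reads may be split among them. In controls, isoflurane minus propofol was higher for 4 and lower for 6 of the 23, among the latter the proteasome genes Psmb10 (-0.81, adjusted p = 3.68e-05) and Psmb9 (-0.69, adjusted p = 0.000254), whereas B2m, the light chain of class I, was higher (0.21, adjusted p = 0.00497). Among costimulatory genes Cd40 rose under isoflurane (1.35, adjusted p = 0.00937), and Cd86 and Cd274 had 0.23 (adjusted p = 0.456) and 0.70 (adjusted p = 0.0601). Cd80 and Pdcd1lg2 were too low to test, and Icoslg was not among the symbols.

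**Figure D4:**
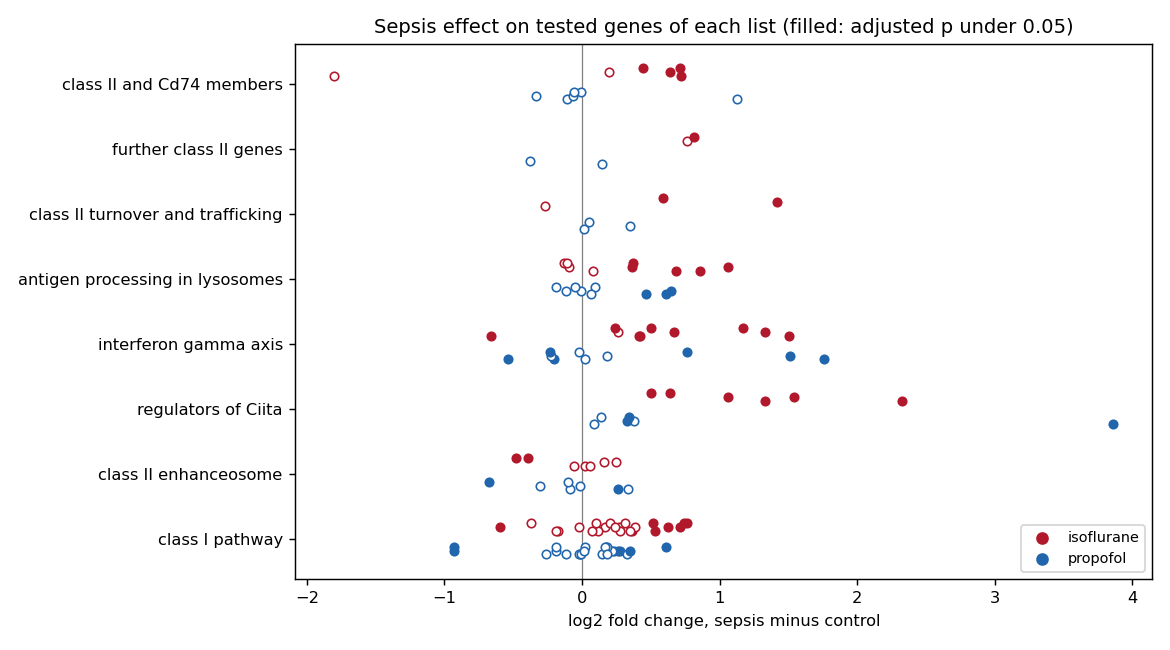
Log2 fold change of sepsis against control for each tested gene of 8 lists, isoflurane in red (upper points of each list) and propofol in blue (lower points), filled where the adjusted p was below 0.05. Among the members 4 filled points lie above 0 under isoflurane and no point is filled under propofol, while Jak2 (1.50 and 1.76) and Il10 (2.32 and 3.86) rose under both anesthetics. The 3.86 of Il10 was fitted over a propofol control group with 12 reads.

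Genes of the cell types that carry class II moved with the members in part, and their part in the members' differences was not tested. Ptprc, the pan-leukocyte gene CD45, was at 17.5 to 28.9 CPM in Isoflurane + Sepsis, 8.60 to 11.1 in isoflurane control, 16.8 to 21.3 in Propofol + Sepsis and 11.9 to 14.8 in propofol control. It rose with sepsis under isoflurane by 1.21 (adjusted p = 0.000624) and under propofol by 0.57 (adjusted p = 0.00209), and was lower in isoflurane controls by -0.46 (adjusted p = 0.00468). Unlike Cd74 it thus rose under both anesthetics. Its interaction was 0.63 (adjusted p = 0.0903). Cd74 reads per Ptprc read were 5.81 ± 1.08 in Isoflurane + Sepsis, 7.94 ± 0.688 in isoflurane control, 5.24 ± 0.605 in Propofol + Sepsis and 8.40 ± 1.16 in propofol control, and on this ratio each sepsis group was below its control group without overlap.

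All 10 Kupffer cell and macrophage genes in the files were tested, and under isoflurane 6 rose and 1, Clec4f, fell (-0.60, adjusted p = 0.00213). Under propofol 2 rose and 1 fell, and in isoflurane controls 3 were lower. Among all genes tested 25.7% rose and 24.4% fell under isoflurane, and 20.4% rose and 21.7% fell under propofol. In isoflurane controls 21.7% of all genes were lower. The summed level of the 10 listed genes was 471 to 649 CPM in Isoflurane + Sepsis, 414 to 510 in isoflurane control, 447 to 550 in Propofol + Sepsis and 484 to 546 in propofol control. Cd74 reads per read on this list were 0.206 to 0.264 in Isoflurane + Sepsis, 0.150 to 0.174 in isoflurane control, 0.195 to 0.226 in Propofol + Sepsis and 0.183 to 0.250 in propofol control. The isoflurane control libraries were below all others on this ratio too. Cd68, a lysosomal macrophage protein, rose by 0.44 under isoflurane (adjusted p = 0.00554), had -0.12 under propofol (adjusted p = 0.345), and had a called interaction of 0.56 (adjusted p = 0.0473). The interaction of the other 9 genes was not called, and over all genes tested 1.66% were called with a positive one. Csf1r, the macrophage growth factor receptor, was lower in isoflurane controls by -0.52 (adjusted p = 0.000964), and per Csf1r read Cd74 was at 1.92 to 2.26 in isoflurane control and 1.90 to 2.24 in propofol control, which overlapped. On the same ratio Isoflurane + Sepsis was at 1.89 to 2.64, which overlapped its control, and Propofol + Sepsis at 1.49 to 1.76, below every propofol control library.

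**Figure D5:**
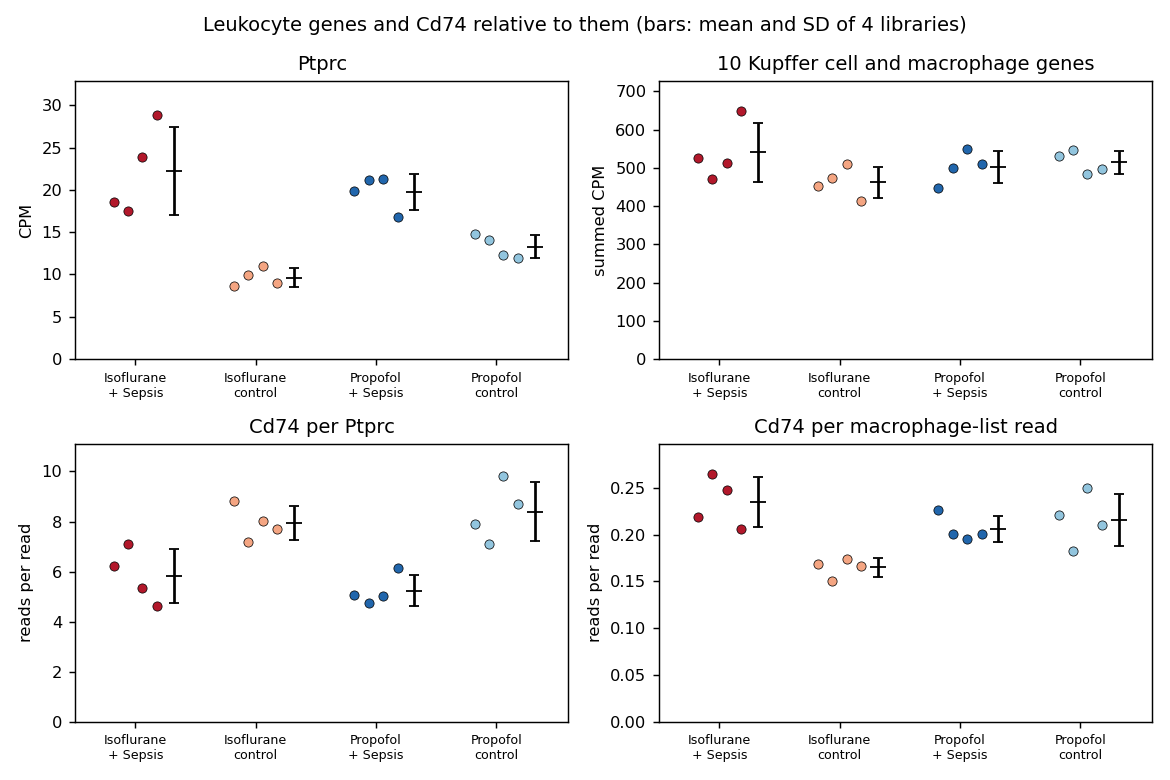
Upper panels: CPM of Ptprc and summed CPM of 10 Kupffer cell and macrophage genes in each library; lower panels: Cd74 reads per Ptprc read and per read on the 10 genes. Points are libraries and bars the mean and SD of 4; per Ptprc read Cd74 was lower after sepsis under both anesthetics (5.81 and 5.24 against 7.94 and 8.40), and per macrophage read the isoflurane controls were lowest (0.150 to 0.174).

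Defining B cell genes were near 0, with group means of 0.125 to 0.319 CPM for Ms4a1 and 0 to 0.0754 for Pax5. The sum of 8 B cell genes was 4.35 to 12.1 CPM in Isoflurane + Sepsis, 4.94 to 6.60 in isoflurane control, 6.08 to 16.9 in Propofol + Sepsis and 15.96 to 25.6 in propofol control, and most of it was Cd22. The 9 dendritic cell genes summed to 22.2 to 29.1, 27.6 to 32.9, 24.4 to 25.5 and 25.7 to 28.3 CPM in the same order of groups, and Cd1d1, a lipid-presenting molecule, made the largest part with group means of 12.7 to 19.7. Of 7 dendritic cell genes tested, 4 were lower in isoflurane than in propofol controls, among them Xcr1 (-0.90, adjusted p = 0.00240), and 1 was higher. Of all genes 21.7% were lower and 21.6% higher in that comparison. With sepsis under isoflurane 1 of the 7 rose, Clec9a (0.62, adjusted p = 0.0440), and 1 fell, with a list median of -0.20. Of all genes 25.7% rose and 24.4% fell there. Sinusoidal endothelial genes moved the other way from Cd74 under isoflurane: 3 of 5 fell, beside 24.4% of all genes. The sum of these 5 was 127 to 149 CPM in Isoflurane + Sepsis against 174 to 227 in isoflurane control, 177 to 188 in Propofol + Sepsis and 201 to 248 in propofol control. Neutrophil and monocyte genes summed to 45.7 to 134 CPM in Isoflurane + Sepsis and 26.8 to 29.8 in isoflurane control, and to 53.0 to 74.1 and 32.5 to 44.3 CPM under propofol. T cell genes summed to 12.4 to 19.2, 12.5 to 14.9, 10.5 to 12.5 and 14.3 to 15.9 CPM. Most of this sum was Cd4, with group means of 9.16 to 12.1 CPM, and the T cell receptor genes Cd3e, Cd3d and Cd3g had group means of 0.0156 to 0.243 CPM.

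The genes whose pattern was most like the mean profile of the 6 tested members over the 16 libraries, among 9767 candidates with a mean of at least 1 CPM, included Slc7a1 (r = 0.88), Gatad2a (0.87), Tfe3 (0.87), Gbp2 (0.86) and Mcm7 (0.85). On deviations from the group means they were Mesdc1 (0.81), Zfp61 (0.79), Cdkn2aip (0.78), Zdhhc7 (0.78), Ddx5 (0.78) and Lrig2 (0.76), so the lists had no gene in common. Gbp2, a guanylate-binding protein induced by interferon, was at 6.76 ± 2.02 CPM in Isoflurane + Sepsis, 2.32 ± 0.328 in isoflurane control, 9.75 ± 1.97 in Propofol + Sepsis and 6.31 ± 1.27 in propofol control. Unlike the members it rose under propofol too, by 0.62 (adjusted p = 0.0218), beside 1.54 under isoflurane (adjusted p = 0.000544). Gatad2a, a subunit of a chromatin remodelling complex, rose by 0.39 under isoflurane (adjusted p = 0.00296), had -0.05 under propofol (adjusted p = 0.467), and was lower in isoflurane controls by -0.44 (adjusted p = 9.85e-05). Without RT1-Bb in the profile, a choice made after seeing the data, Gatad2a led at r = 0.89, and Lilrb3l (0.87) and Cyth4 (0.87), a leukocyte receptor and a cytohesin, were among the next 3.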

How the data were processed

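Poly(A) RNA of 16 liver pools was sequenced with a directional kit. The authors deposited counts, the whole number of reads per gene symbol and library, without normalization. The submitters' processing notes name STAR and rn5; the sources used here do not give the counting program or the annotation. The 2 entries that name no gene were left out (21.6% to 25.4% of reads outside genes, 1.07% to 1.35% ambiguous). Groups and library numbers came from the sample labels. Libraries of a group differed by a chi-square of 3.35 to 96.3 per degree of freedom, so none was counted as a repeat.

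Fits of 8 libraries compared sepsis with control under each anesthetic and the anesthetics in controls and after sepsis, and 1 fit of 16 gave the interaction, by the quasi-likelihood test (edgeR 4.0.16 in R 4.3.3), TMM scaling and filterByExpr (minimum count 10, minimum total 15). Adjusted p is Benjamini-Hochberg over all genes tested. The fit was tested on simulated data. Log2 CPM for profiles used a prior count of 2. Alternatives were DESeq2 1.42.0 (named by the study), limma-voom (limma 3.58.1), RLE size factors, library totals without TMM, a single fit of all 16 libraries, reads thinned to the smallest total, no filter or a mean CPM of 1 as filter, and leaving out each library. The text names every member, of each list up to 4 called genes per direction with the smallest adjusted p (every gene of lists of 6 or fewer), and the 6 non-members most correlated with the mean member profile by each measure. Members and lists were chosen with earlier results of these data known. The ratios of Cd74 to Ptprc, to Csf1r and to macrophage genes, Pnmal2, and genes named beyond that rule were chosen after seeing the data. Promoter sequences are RefSeq's, build GRCr8. Some genes that this rule would name are not reported here, though the counts include them.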

Additional observations from a re-analysis of the deposited data

Results flagged for a closer look

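The response to sepsis differed between the anesthetics by the test of the difference itself for Cd74 (0.82 on the log2 scale, adjusted p = 0.00740), RT1-Da (0.70, adjusted p = 0.0220) and RT1-Ba (0.72, adjusted p = 0.0183), by edgeR over all genes. In 5 of 96 groups of 4 libraries a single library stood apart from the other 3 by Dixon's criterion, which chance alone passes in about 1 in 20 groups. These groups share libraries and genes, so the tally cannot tell whether any single case arose by chance. In the Isoflurane + Sepsis group the libraries that stood apart were library 1 for RT1-Bb (3.04 CPM) and for RT1-Bb reads per RT1-Ba read (0.0873), and library 4 for RT1-Da reads per RT1-Db1 read (2.21). In the isoflurane control group it was library 5 for Cd74 reads per Csf1r read (2.26), and in Propofol + Sepsis library 11 for the summed sinusoidal endothelial genes (188 CPM).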

How the results depend on the processing

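Of 522 alternative fits of single members, 472 kept their direction and side of the threshold, 18 lost a call, 16 gained one and 16 changed sign, the last for differences that were not called. The number of members called with 1 library left out was 4 to 5 for sepsis under isoflurane, 0 to 0 under propofol, 5 to 5 in controls, 0 to 4 after sepsis and 2 to 5 for the interaction. These counts take both directions together, and every call of RT1-Bb was negative. After sepsis the count was 1 with library totals alone, which was RT1-Bb. It was 4 with all 16 libraries in 1 fit, RT1-Bb among them, against 2 in the main fit. RT1-Db1 after sepsis changed sign with library totals (-0.13) and ranged from -0.037 to 0.086 with 1 library left out. RT1-Ba with sepsis under propofol ranged from -0.052 to 0.064. RT1-Bb in controls ranged from -0.37 to 0.51 and was 0.065 with DESeq2, 1.06 with limma-voom, 0.0080 without a filter, 0.089 thinned and 0.040 with all 16 libraries. The cause of these shifts was not tested. Ciita rests on 37 to 108 reads in a library. No paired analysis was possible because the labels number the libraries 1 to 16 without repeats.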
